A study of Homo sapiens with 2 samples.

Results

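The genes described here are 10 that encode small RNAs of the spliceosome or the U3 small nucleolar RNA: the U1 genes RNU1-1, RNU1-2, RNVU1-14 and RNVU1-31, the U5 genes RNU5A-1 and RNU5E-1, the U12 gene RNU12, and the U3 genes SNORD3A, SNORD3B-2 and SNORD3D. They are 10 of 58957 genes of the RefSeq table on assembled chromosomes. They were chosen from the NUSAP1 peak list itself, each for a summit within 1 kb of the gene, so that all 10 have such a summit is no result. A summit lay within 1 kb of 7.27% of all genes, and of 0.755% of the 8343 genes of at most 300 bp. Every value below comes from the same list and describes these genes without a test.

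The study made chromatin immunoprecipitation with sequencing (ChIP-seq) in AsPC1, an established human pancreatic ductal adenocarcinoma line, with no treatment or genotype named. NUSAP1, a nucleolar and spindle-associated protein that binds microtubules, was precipitated with a commercial antibody in 1 library, and 1 library was made from input chromatin without antibody. Both came from formaldehyde-fixed, sonicated chromatin of the same line. The authors' peak list of the NUSAP1 library was analysed, with 9043 summits on genome build hg38. A file of the input library was not analysed here, there were no replicates, total reads per library are unknown, and a peak list holds no expression by which to check the cell type.

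The U1, U2, U4, U5 and U6 RNAs form the core of the major spliceosome, which removes most introns, and U11, U12, U4atac and U6atac serve the minor spliceosome, with U5 in both. U1 pairs with the start of the intron, U5 holds the exon ends during splicing, and U12 recognises the branch site of minor introns. U3 is a box C/D RNA of the nucleolus that guides early cleavage of the ribosomal RNA precursor. These genes are short, free of introns and very active, and most are read by RNA polymerase II from a promoter bound by the SNAP complex. Several U1 and U3 copies are nearly identical in sequence. How the authors' aligner placed reads that fit several copies is not given in the sources used here, so the copy from which a fragment came cannot be told apart from its near-identical copies.

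Within the 1 kb that the rule allowed, most peaks lay close to the genes. Closeness is partly set by that rule, so nothing is read from it. The summit was within 110 bp of the gene or inside it for 8 of the 10, and the deposited peak region overlapped the gene for the same number. One summit (SNORD3A) was inside the gene, 4 were below the lower end and 5 above the upper end. The gene table gives no strand, so upstream and downstream are not distinguished, and lower and upper refer to chromosome position. The summits farthest from the gene were those of RNU5E-1 (599 bp) and RNU1-1 (270 bp), and the nearest family genes outside the 1 kb limit were SNORD3B-1 (1717 bp) and SNORD3C (1892 bp).

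**Figure D1:**
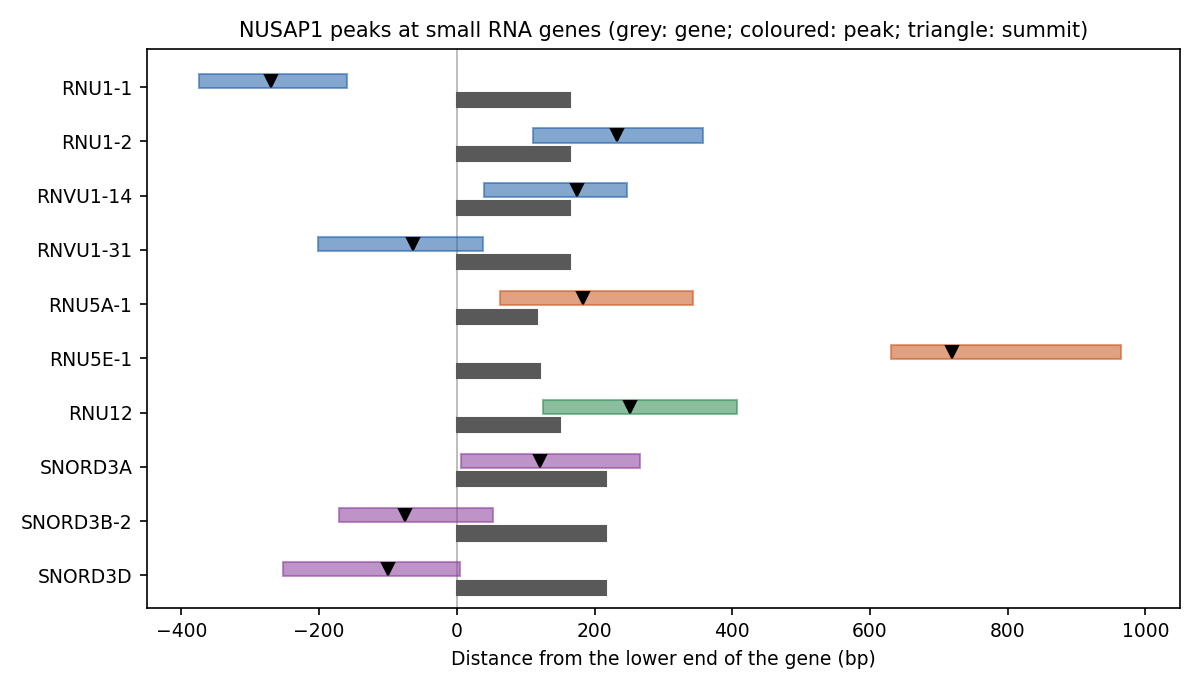
Position of the NUSAP1 peak at each of the 10 genes, in bp from the lower end of the gene (x axis, linear), with the gene in grey, the deposited peak region in colour by family and the summit as a triangle. The peak regions of RNU1-1 and RNU5E-1 do not touch the gene, and the other 8 overlap it by 4 to 211 bp.

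Among the U1 genes, RNU1-2 had the highest fold enrichment at the summit, which is the caller's ratio of immunoprecipitated fragments to the local background with 1 added to each. RNU1-2 (gene ID 26870) lies at chr1:16895980-16896143. Its peak, chr1:16896091-16896336, was 246 bp wide and covered 53 bp at the upper end of the gene, with the summit at 16896213, 70 bp above the upper end. It held 9 fragments over a background expectation of 1.12, a fold enrichment of 4.72 with a caller p of 3.08e-07 and q of 0.0368. The exact 95% Poisson interval of 9 fragments is 4.12 to 17.1 and covers counting error only, here and below. Of 52 summits in the list with 9 fragments, 40 had a higher background than RNU1-2 and 12 had q under 0.05.

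RNU1-1 (gene ID 26871, chr1:16514122-16514285) had more fragments than RNU1-2, 12 (6.20 to 21.0), on a higher background of 2.41. Fold enrichment was 3.81, at q 0.113. The peak, chr1:16513747-16513962, was 216 bp wide, ended 159 bp below the gene and had its summit at 16513852. Between these genes, whose gap is 382 kb, the list held 1 other summit. It lay at 16545906, 33 bp from the glycine tRNA gene TRG-CCC1-1, with 8 fragments over 2.54 (fold enrichment 2.55, q 1). RNU1-3 and RNU1-4, named here outside the naming rule, lie in the same interval and had their nearest summits at 121 and 156 kb. Below RNU1-1 the next summit was 508 kb away, and above RNU1-2 it was 46.5 kb away, inside CROCC (fold enrichment 3.70, q 0.488).

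The variant U1 genes RNVU1-14 and RNVU1-31 lie 184 kb apart on the long arm of chromosome 1. RNVU1-14 (gene ID 101954266, chr1:145281116-145281279) had 7 fragments (2.81 to 14.4) over 0.991, fold enrichment 4.02 (q 0.418). Its peak, chr1:145281155-145281362, covered 125 bp of the gene, with the summit at 145281290, 11 bp above it. RNVU1-31 (gene ID 124904619, chr1:145465617-145465780) had 6 fragments (2.20 to 13.1) over 1.42, fold enrichment 2.89 (q 0.944). Its peak, chr1:145465415-145465654, reached 38 bp into the gene from below, with the summit at 145465554. Neither passed q 0.05.

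From RNVU1-14 up to 146376966 each summit lay at a small RNA gene, but 2 of them belong to genes chosen for their summits. The next summit below RNVU1-14, at 144401839, was 10.7 kb from such a gene, so nothing is read from this stretch. The summit between RNVU1-14 and RNVU1-31, at 145287679, lay inside LOC101060170 and 87 bp from the asparagine tRNA gene TRN-GTT2-7 (4 fragments over 0.708, q 1). The next summit above RNVU1-31, 911 kb away at 146376966, lay inside LOC124904613, an snRNA gene of 164 bp whose family the table does not give. That summit, also inside LOC112268274, had 11 fragments over 2.14, fold enrichment 3.83 (q 0.166). RNU1-1, RNU1-2, RNVU1-14 and RNVU1-31 are also 164 bp long. Within 1 Mb of the summits of RNVU1-14 and RNVU1-31 there were 3 others each, as for RNU12. Over the 10 genes this number ran from 3 to 15 (median 7.5).

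The U5 genes differed in where the peak sat. RNU5A-1 (gene ID 26831, chr15:65296051-65296167) had its summit at 65296235, 68 bp above the gene, in a peak 280 bp wide, chr15:65296114-65296393, that covered 54 bp of it. It held 9 fragments (4.12 to 17.1) over 1.42, fold enrichment 4.14 (q 0.162). That is as many fragments as RNU1-2 on a higher background. RNU5B-1, a further U5 gene 8.51 kb above RNU5A-1, had no summit of its own, and the summits beyond RNU5A-1 were 40.3 kb below and 315 kb above it. The latter was at INTS14, described below.

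RNU5E-1 (gene ID 26829, chr1:11908152-11908272) had the fewest fragments of the 10 genes. Its summit at 11908871 held 4 fragments (1.09 to 10.2) over 0.892, fold enrichment 2.64 (q 1). The peak, chr1:11908782-11909116, was 335 bp wide and began 509 bp above the gene. A further summit followed at 11909609, which is 1337 bp above RNU5E-1 and 199 bp from the U5 pseudogene RNU5E-4P. It had 5 fragments over 0.921, fold enrichment 3.12 (q 0.779). This was the closest pair of summits around any of the 10 genes.

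RNU12 (gene ID 267010, chr22:42615244-42615393) is the one U12 gene of the table that is not classed as a pseudogene. Its peak, chr22:42615369-42615650, was 282 bp wide and covered 25 bp at the upper end of the gene, with the summit at 42615496, 103 bp above it. The summit held 5 fragments (1.62 to 11.7) over 0.963, fold enrichment 3.06 (q 0.820). It lies between POLDIP3, which lies 360 bp below RNU12, and CYB5R3, which lies 2446 bp above it. The summit was within 1 kb of the upper end of POLDIP3 too. The next summits were 400 kb below and 46.8 kb above RNU12.

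SNORD3A held the strongest summit of the 10 genes and the 6th highest fold enrichment of all 9043 summits. SNORD3A (gene ID 780851, chr17:19188016-19188232) had 17 fragments (9.90 to 27.2) over 1.42, a fold enrichment of 7.43 with a caller p of 2.34e-14 and q of 1.03e-08. The summit at 19188137 was inside the gene, and the peak, chr17:19188022-19188281, covered 211 of its 217 bp. Of the 3 summits in the list with 17 fragments, it had the lowest background (median 3.56).

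The other U3 genes had nearly as many fragments on higher backgrounds. SNORD3B-2 (gene ID 780852, chr17:19063920-19064136) had 13 fragments (6.92 to 22.2) over 3.56, fold enrichment 3.07 (q 0.418). Its peak, chr17:19063749-19063972, had its summit at 19063845, 75 bp below the gene. SNORD3D (gene ID 780854, chr17:19112420-19112636) had 12 fragments (6.20 to 21.0) over 4.27, fold enrichment 2.47 (q 0.825). Its peak, chr17:19112167-19112423, reached 4 bp into the gene, with the summit at 19112320, 100 bp below it. The background at SNORD3D was 6.03 times the lowest of the list, at SNORD3B-2 5.03 times and at SNORD3A 2.01 times. The fragment intervals of the 3 genes overlap.

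These were 3 consecutive summits of chromosome 17, within 124 kb, with none between them. The next ones lay 58.7 kb below SNORD3B-2, inside SLC5A10 and FAM83G (fold enrichment 2.61, q 1), and 213 kb above SNORD3A (3.01, q 0.914). SNORD3B-1 lies 1791 bp from SNORD3B-2, and SNORD3C 1796 bp from SNORD3A, so both pairs are similarly spaced. No summit was nearer to SNORD3B-1 than the one at SNORD3B-2, nor to SNORD3C than the one at SNORD3A.

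In order of fragments, SNORD3A with 17 came first, then SNORD3B-2, RNU1-1 and SNORD3D with 13, 12 and 12, RNU1-2 and RNU5A-1 with 9 each, RNVU1-14, RNVU1-31, RNU12 and RNU5E-1. The 95% counting intervals overlapped in all 45 pairs, including neighbours in this order. For the first and last, SNORD3A and RNU5E-1, the overlap was narrow, from 9.90 to 10.2. Overlap of such intervals does not show that the counts are alike, and no pair was tested. At least 7 fragments stood at 7 of the 10 summits, against 12.2% of the whole list. RNU1-1, SNORD3B-2 and SNORD3D, 3 of the 10, were on a background 3 or more times as high as the lowest, which held for 2.16% of the list. Since the genes were picked from this list with its values known, nothing is read from either share. The part of that background in those summits was not tested.

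**Figure D2:**
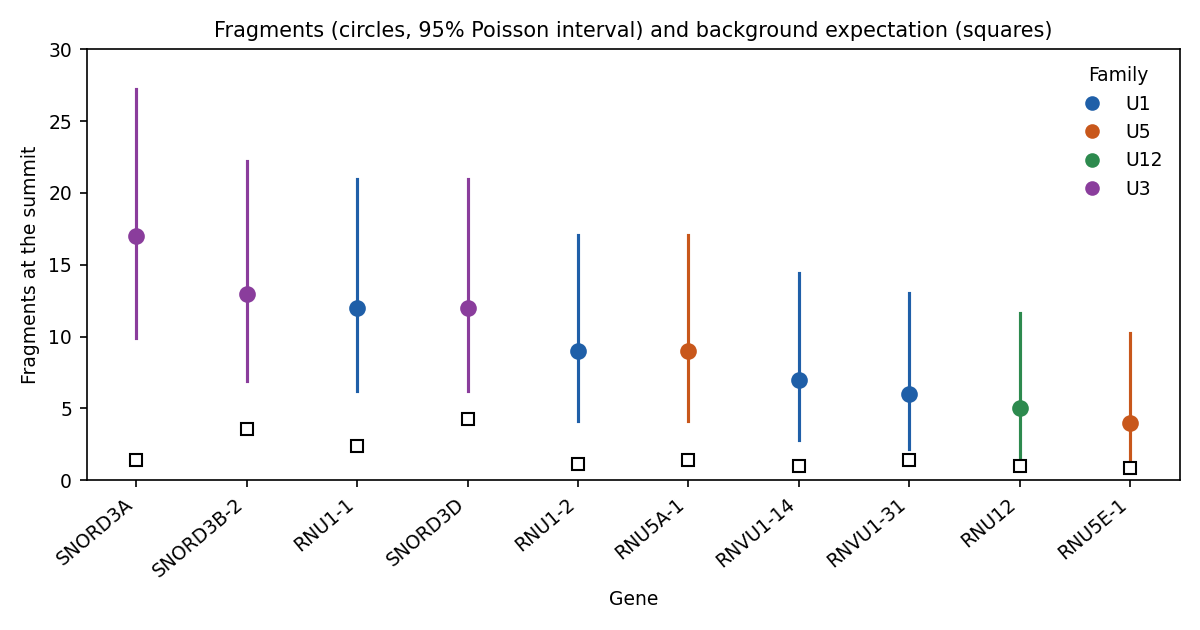
Fragments at the summit of each gene (circles, coloured by family, with exact 95% Poisson intervals) and the caller's background expectation (open squares), both in fragments on a linear axis. SNORD3A has 17 fragments over 1.42, while SNORD3D has 12 over 4.27, the highest background of the 10.

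The caller's q was under 0.05 at RNU1-2 and SNORD3A, 2 of the 10, beside 1.48% of all summits. Since the genes were picked with these values in view, nothing is read from that comparison. The same holds for the comparisons of fold enrichment and width with the list that follow. The other 8 ran from 0.113 at RNU1-1 to 1 at RNU5E-1. The median fold enrichment of the 10 was 3.44 (2.47 to 7.43), against 3.01 in the list, and 7 of the 10 were above the list's median. RNVU1-31, RNU5E-1 and SNORD3D were below it. All 10 peaks were wider than the smallest width of 199 bp, as were 49.0% of the list. Compared with summits of as many fragments, 6 of the 10 were wider than the median.

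**Figure D3:**
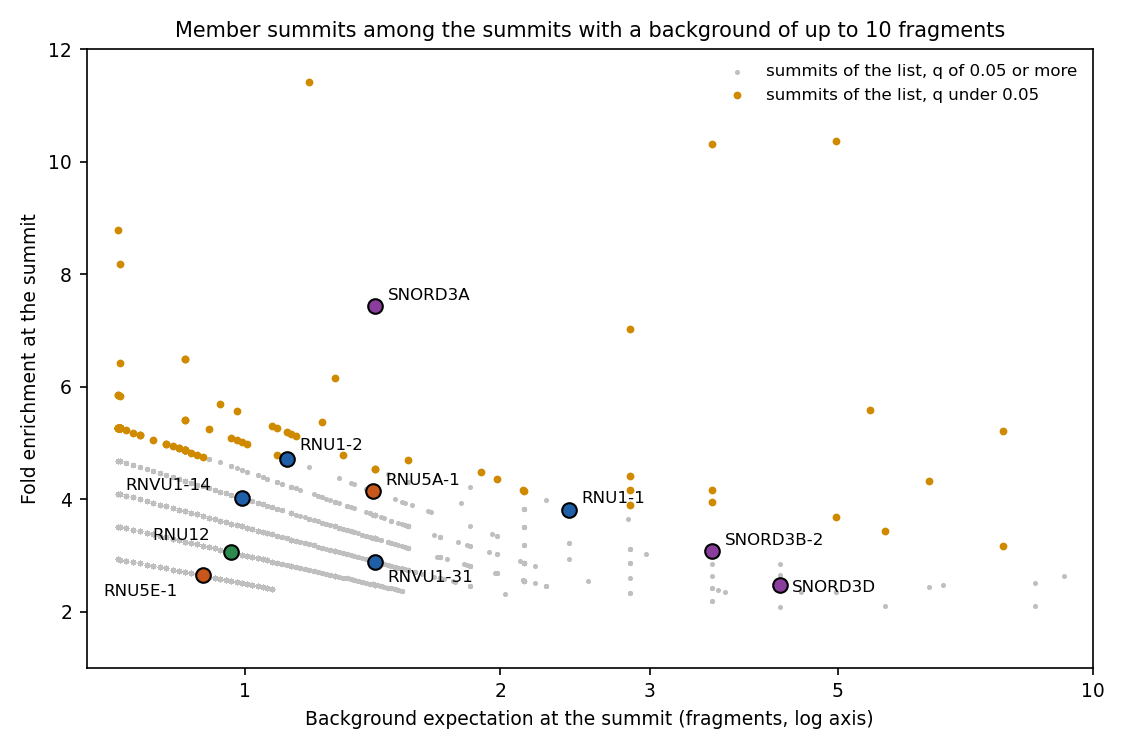
Fold enrichment (y axis, linear) against background expectation in fragments (x axis, logarithmic) for summits of the list with a background up to 10, in grey with q of 0.05 or more and orange with q under 0.05; the 10 genes are circled in the colour of their family. SNORD3A stands at 7.43 on a background of 1.42, while SNORD3B-2 and SNORD3D lie at 3.07 and 2.47 on 3.56 and 4.27.

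Most copies of the same families had no summit. The U1, U5, U12 and U3 families have 40 genes in the table, pseudogenes left out, of which the 10 had a summit within 1 kb and 30 did not. For U1 it was 4 of 21, for U5 2 of 5, for U12 1 of 1 and for U3 3 of 13. The rule fixes these counts. For near-identical U1 and U3 copies, a copy without signal cannot be told apart from one whose reads were placed elsewhere.

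The nearest U1 gene without one was RNVU1-15, 10.7 kb from a summit, followed by RNVU1-19 at 26.5 kb. The 17 U1 genes without a summit had a median distance of 156 kb. In the U5 family RNU5B-1 was 8.44 kb away, and RNU5D-1 and RNU5F-1 were 333 and 342 kb away. Among the U3 genes, SNORD3H was 4400 bp from a summit, SNORD3G 23.6 kb and SNORD3K 25.1 kb. Of 153 pseudogenes of these families, 3 (1.96%) had a summit within 1 kb, beside 0.755% of all genes of at most 300 bp. These were the U1 pseudogenes RNU1-75P (182 bp, fold enrichment 3.76, q 0.433) and RNU1-131P (673 bp, 3.24, q 0.779), and RNU5E-4P.

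None of the 14 genes of the other families, U2, U4, U6, U11, U4atac, U6atac and U7 (the RNA that processes histone messages), had a summit within 1 kb. These families are the ones without a chosen gene, and genes were chosen for a summit, so the split itself bears on this count. Among all genes of at most 300 bp, 0.755% had one, so a lack among 14 genes is no contrast with the chosen families. RNU2-63P, which the table lists as an snRNA gene, was nearest at 6.64 kb, then RNU2-1 at 17.8 kb and RNU4ATAC at 42.4 kb. Families were assigned by symbol, so snRNA genes known only by number are not counted here. Among those, LOC124904138 near RNU2-1 had a summit 65 bp away and is described below. The U4 genes RNU4-2 and RNU4-1 were 79.7 and 81.0 kb away, and the nearest U6 gene, RNU6-2, 55.5 kb. Of 1660 pseudogenes of these families, 8 (0.482%) had a summit. None of 17 other small or capped non-coding RNA genes, such as those of 7SK (RN7SK), RNase MRP (RMRP), RNase P (RPPH1) and the U8 snoRNA (SNORD118), had one within 5 kb. SCARNA2, a guide RNA of Cajal bodies, was nearest at 15.2 kb. Within 5 kb, 117 of 3779 small RNA genes had a summit, so a lack among 17 genes is no contrast.

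**Figure D4:**
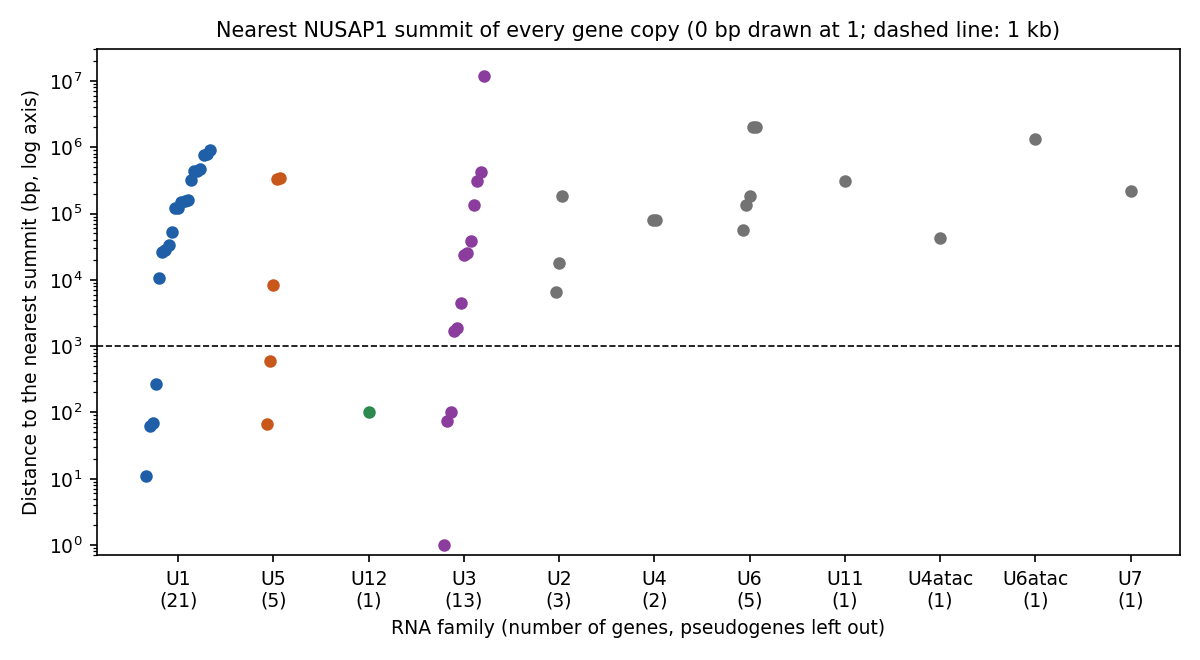
Distance from each gene copy to its nearest NUSAP1 summit in bp (y axis, logarithmic, 0 drawn at 1), by RNA family with the number of genes in parentheses and pseudogenes left out; the dashed line marks 1 kb. The 10 chosen genes lie below the line and the other copies above it, with all 14 copies of the 7 families on the right above 6 kb. Genes known only by number have no assigned family and are not drawn.

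Of 149 genes that the table classes as snRNA, 10 had a summit within 1 kb (6.71%). The share was 0.755% over genes of at most 300 bp and 7.27% over all genes. Of the 10, 7 are chosen genes, picked for having a summit, so nothing is read from the share of the class. Of 142 others 3 had one: LOC124904613, LOC124906137 (61 bp long, fold enrichment 2.48, q 1) and LOC124904138. These 3 are known only by number. The 7 chosen genes are all those of the 41 in named families with a summit, so the choice itself leaves no named family here. LOC124904138 (chr17:43251829-43252019) had the most fragments, 21 over 4.98, fold enrichment 3.68 (q 0.00315). Its summit at 43251764 was 65 bp below the gene, and its background was 7.04 times the lowest of the list. It lies in a group of 12 snRNA genes of 191 or 192 bp within 100 kb of the U2 gene RNU2-1, and this was the sole summit in the 66.4 kb that they and RNU2-1 span. The table does not give the family of these genes, and their sequence was not compared.

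Of 1193 snoRNA genes, 5 had a summit within 1 kb (0.419%), beside 0.755% of genes of at most 300 bp. Of the 5, 3 are chosen genes, so nothing is read from this share either. Apart from the 3 U3 genes these were SNORD95 (502 bp away, fold enrichment 2.84, q 0.914) and LOC124906145 (895 bp, 2.86, q 1).

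**Figure D5:**
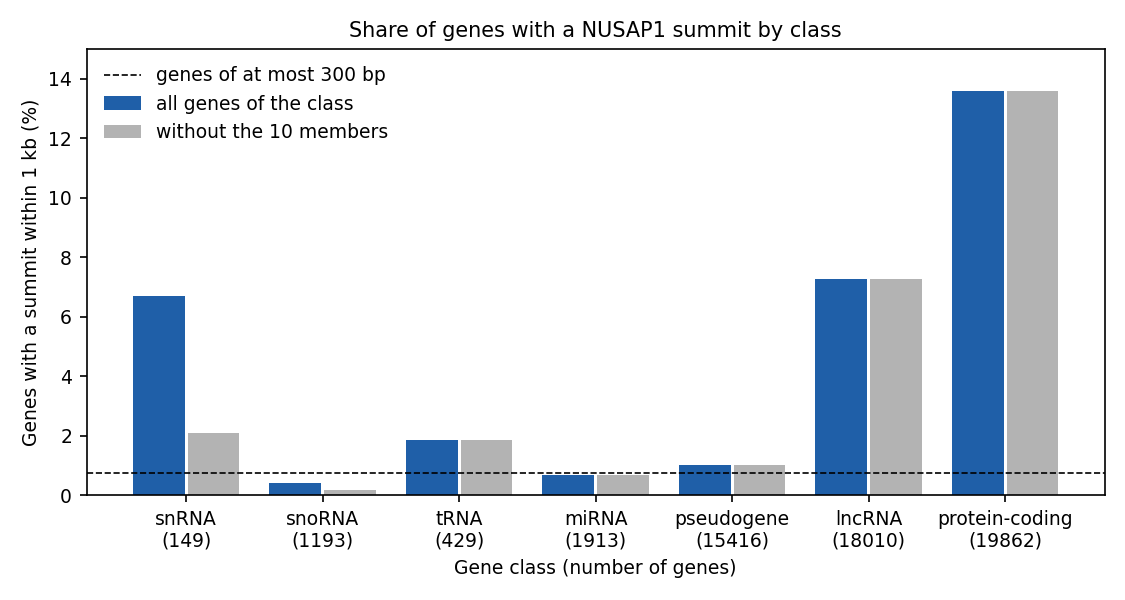
Percentage of genes with a NUSAP1 summit within 1 kb (y axis, linear from 0) by RefSeq class, with the number of genes in parentheses, for all genes of the class (blue) and without the 10 chosen genes (grey); the dashed line marks genes of at most 300 bp. The snRNA bar is 6.71% with the chosen genes, which were picked for having a summit, and the bar of protein-coding genes is 13.6%.

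Protein genes that make, assemble or work with these RNAs were counted over 112 genes in 8 lists. A summit within 1 kb was found for 12 (10.7%), against 13.6% of the 19862 protein-coding genes, and none had q under 0.05. Integrator, the complex that cuts the 3' end of snRNA transcripts, had 4 of 15 (INTS7, INTS8, INTS14 and INTS15). The snRNA promoter factors had 3 of 17: SNAPC3 and SNAPC5, subunits of the SNAP complex, and ICE1, of the little elongation complex. Sm proteins had 1 of 8 (SNRPN), U1 proteins 1 of 6 (LUC7L2), U5 proteins 1 of 8 (the helicase gene SNRNP200), and the U3 particle with its processome 2 of 27 (WDR36 and WDR43). The 21 genes of snRNP assembly and the 10 of the minor spliceosome had none.

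Among these genes, SNAPC3, INTS14, SNAPC5 and WDR36 had the summit upstream of the start. SNAPC3 had 7 fragments over 0.708, fold enrichment 4.68 (q 0.0857), with the summit 258 bp upstream of the start. INTS14 had 11 over 2.14, fold enrichment 3.83 (q 0.166), 76 bp upstream. SNAPC5 had 6 over 1.15, fold enrichment 3.26 (q 0.779), 167 bp upstream, and WDR36 had 5 over 0.850, fold enrichment 3.24 (q 0.779), 17 bp upstream. The promoters of SNAPC3, SNAPC5 and INTS14 are shown because they belong to the machinery of snRNA synthesis and lie partly under a peak. Each is the 250 bases before the start from RefSeq on GRCh38.p14, 5′ to 3′ on the strand of the gene, with the bases inside the deposited peak region in capitals. SNAPC3 is at chr9:15422626-15422875 on the plus strand, SNAPC5 at chr15:66497763-66498012 and INTS14 at chr15:65611132-65611381, both on the minus strand.
SNAPC3: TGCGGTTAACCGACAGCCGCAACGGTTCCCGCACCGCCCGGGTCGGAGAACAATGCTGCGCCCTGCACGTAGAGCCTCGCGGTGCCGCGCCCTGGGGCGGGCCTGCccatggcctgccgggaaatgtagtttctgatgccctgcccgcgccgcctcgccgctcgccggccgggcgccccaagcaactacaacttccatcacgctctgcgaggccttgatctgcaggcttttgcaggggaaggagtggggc
SNAPC5: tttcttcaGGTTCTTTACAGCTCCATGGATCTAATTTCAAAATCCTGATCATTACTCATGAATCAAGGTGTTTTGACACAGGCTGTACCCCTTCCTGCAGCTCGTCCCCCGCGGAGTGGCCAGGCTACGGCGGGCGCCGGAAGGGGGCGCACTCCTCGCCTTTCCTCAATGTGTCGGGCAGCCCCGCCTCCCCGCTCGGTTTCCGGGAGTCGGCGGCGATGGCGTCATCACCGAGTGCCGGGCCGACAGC
INTS14: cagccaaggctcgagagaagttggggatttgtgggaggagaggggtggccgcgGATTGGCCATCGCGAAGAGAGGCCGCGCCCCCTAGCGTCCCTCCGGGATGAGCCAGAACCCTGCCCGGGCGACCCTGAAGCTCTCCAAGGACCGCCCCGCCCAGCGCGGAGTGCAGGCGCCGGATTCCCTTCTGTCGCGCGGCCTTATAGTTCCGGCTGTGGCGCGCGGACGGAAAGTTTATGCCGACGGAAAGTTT

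The peak covered 106 of the 250 bases of SNAPC3, at the far side from the start, 242 of SNAPC5 and 197 of INTS14. Motifs of snRNA promoters were searched on both strands in windows of 250 bases before to 50 after the start. The octamer ATGCAAAT and the TATA box TATAAA were found in none of SNAPC3, SNAPC5, INTS14 and WDR36. They are in 1.77% and 11.5% of all 35116 promoters of the table. The core of the ZNF143 site, ACTACAA, occurs in 2.77% of promoters. It was found in SNAPC3, starting 66 bases before the start and outside the peak. The core of the proximal sequence element, CACCNTNA, occurs in 10.2% of promoters. It was found in SNAPC5 on the strand opposite to the printed one, 188 bases before the start and inside the peak. These are matches of letters and not bound sites. The promoter table was not used for the 10 small RNA genes themselves, which it does not list.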

How the data were processed

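Per the labels' protocols, NUSAP1 was precipitated from AsPC1 chromatin in 1 library and input chromatin made 1 further library. Build hg38 is named in the submitters' processing notes, as are MACS2 2.1.0, Bowtie 1.1.2, Trimmomatic 0.33 and bcl2fastq 2.17. No settings are given. The deposited narrowPeak list was used. For each peak the authors deposited the ratio of fragments to background (fold enrichment), -log10 p, -log10 q, a score and, as an other deposited value, the offset of the summit in bp. The score equals 10 times -log10 p without its decimals in each of the 9043 peaks. Positions count from 1.

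Fragments and background expectation at each summit were solved from the Poisson p together with the ratio, taken to be (fragments + 1) divided by (background + 1). All 9043 matched within 0.001 of -log10 p, and the step was tested on simulated data. The background's origin in the input library is not stated by the sources used here. Distances run from the summit to the nearer end of the RefSeq gene (GRCh38.p14, the same build), 0 inside it. The table gives no sequence names, so genes listed after the first fall in position within a chromosome were left out as lying on other sequences. Families were assigned by symbol, and pseudogenes by the table's class. The sequences of the promoters are RefSeq's.

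The members and lists were chosen with earlier results of these data known. Genes were named by rule: the 10 members; family copies with a summit within 5 kb and the 5 nearest without; members of other families and of the protein lists with a summit within 1 kb; and genes beside a member summit. RNU1-3, RNU1-4, SNORD95, the tRNA and LOC genes, RNVU1-19, RNU5D-1, RNU5F-1 and other copies given by distance were named outside it. With 1 library there is no test between samples, and the caller's q is the sole test of a summit. Alternatives were windows of 250 bp, 500 bp and 5 kb, overlap of the peak region in place of the summit, limits on q, fragments and background, pseudogenes included, and shared summits counted once. Computation used scipy 1.17.1, pandas 2.3.3 and numpy 2.4.6 under Python 3.11.15, and figures were drawn with matplotlib 3.10.9.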

Additional observations from a re-analysis of the deposited data

How the results depend on the processing

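The 10 genes were 8 with a window of 250 bp (RNU1-1 and RNU5E-1 left), 9 with 500 bp, and 7 each at 7 or more fragments and on a background under 3 times the lowest. At q under 0.05 they were 2, RNU1-2 and SNORD3A. The other 30 of the 40 family copies could not join them, as they had no summit within 1 kb at any q. With a window of 5 kb the family count was 13 of 40 genes. With pseudogenes included it was also 13, but over 40 genes and 153 pseudogenes. All small RNA genes with a summit numbered 36 of 3779. They were 22 with 250 bp, 117 with 5 kb, 11 with at least 7 fragments, and 3 by q under 0.05. The protein lists had 12 genes, 4 of them with at least 7 fragments, and 0 by q under 0.05. Stricter limits keep fewer summits by construction. No paired analysis was possible because there was 1 library of each kind. Fragment counts of 4 to 17 limit every comparison between the genes.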

Other observations

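Genes read by RNA polymerase III were described by their tRNA genes. Of 429 tRNA genes, 8 (1.86%) had a summit within 1 kb, beside 0.755% of genes of at most 300 bp. Of the 8, 5 had it within 110 bp, a limit taken from the chosen genes. The share of short genes within 110 bp was not counted, so nothing is read from that closeness. The 8 genes were TRL-TAA1-1 (6 bp), TRR-TCG4-1 (14 bp), TRG-CCC1-1 (33 bp), TRN-GTT2-7 (87 bp), TRN-GTT2-3 (101 bp), TRM-CAT4-2, TRI-AAT1-1 and TRQ-CTG1-2. None had q under 0.05. The highest fold enrichment was 3.51 at TRN-GTT2-3 and the most fragments were 8 at TRG-CCC1-1. TRG-CCC1-1 and TRN-GTT2-7 lie between the U1 genes described above. Of the others, 5 lie on chromosome 6, and the share of all tRNA genes on that chromosome was not counted.

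Of 1913 miRNA genes, 13 (0.680%) had a summit within 1 kb and none had q under 0.05. MIR4633 and MIR6790 held the summit inside the gene, with fold enrichments of 3.76 and 2.81. None of the 29 rRNA genes placed on assembled chromosomes had one.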
